A study of Mus musculus with 25 samples.

Results

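The genes described here are 42 genes of the cell cycle and of DNA replication, measured in untreated peritoneal macrophages of the mouse by RNA sequencing. They were chosen by name, and all 42 were among the 13266 genes of the deposited table. Libraries came from 6 genotypes, all at day 0, with 5 libraries of WT and 4 each of RIG-I KO, MDA5 KO, SAMHD1 KO, SAMHD1 RIG-I DKO and SAMHD1 MDA5 DKO, 25 in all. The knockouts lack SAMHD1 (gene Samhd1), the RNA sensor MDA5 (gene Ifih1), the RNA sensor RIG-I (gene Ddx58), or SAMHD1 together with either sensor. Sample titles of the SAMHD1 KO group carry DEL for some samples and KO for others, the genotype is given as SAMHD1 KO for all 4, and the columns used here do not show which is which, so they were taken as 1 group. Strain, sex, age and the way each allele was made are not given in the labels used here, nor whether the libraries are from different mice, so p-values measure only the spread between these libraries. Libraries carry the table's column order within a genotype as a number, which is only a name. Normalized counts are reads divided by a size factor for depth, and the libraries held 25886469 to 39590589 reads in the listed genes.

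All 12 markers of large peritoneal macrophages on a fixed list were detected, with Gata6, the transcription factor that defines these cells, at 3522.9 to 5857.4. Each targeted gene was lower in the libraries labelled as lacking it, though 2 of these held intermediate Samhd1. Ifih1 was at 0.87 to 14.89 in the libraries without MDA5 and at 1411.47 to 2482.21 in the others. Ddx58 was at 194.21 to 303.6 in the libraries without RIG-I and at 1109.85 to 2247.11 in the others. Samhd1 was at 6485.5 to 13120.1 where the gene was intact and at 1068.86 to 1852.2 in most libraries labelled as lacking it, but at 4766.87 in the library labelled SAMHD1 KO 2 and at 4952.21 in the library labelled SAMHD1 MDA5 DKO 3. WT 3 and SAMHD1 KO 2 also stood apart on the first principal component of the whole table, at -42.76 and -47.89 against -3.92 to 14.43 for the other libraries. Their column names end in 307 and 308, after the 284 to 306 of the other libraries. What these numbers stand for is not stated. Some of the 12 macrophage markers were at their lowest of all libraries in these 2. They were Icam2 (13298.3, mean 21372.5) and Lyz2 (597160, mean 1446671.9) in WT 3. In SAMHD1 KO 2 they were Timd4, Cd5l, Itgam and Cd9 (6707.5, mean 13167.5). The other markers were lowest elsewhere, and Prg4 was at its highest in WT 3 (282118.2). Without WT 3 and SAMHD1 KO 2, and without SAMHD1 KO 2 and SAMHD1 MDA5 DKO 3, values are given for the score, for Pcna, for the medians over the 42 genes and for the pathway genes called. For the score and the pathway genes this was chosen after seeing the data.

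Cells that divide pass from G1 through S phase, in which DNA is copied, to mitosis. E2F transcription factors switch on the genes for origin licensing and replication, among them CDT1, CDC6 and the MCM helicase subunits, and the sliding clamp PCNA. Genes for mitosis, such as the B cyclins, CDK1, the Aurora and Polo kinases, the kinetochore proteins and the mitotic kinesins, peak later, in G2 and M, and are read out through promoter elements known as CHR and CCAAT. Resident macrophages of the peritoneal cavity maintain themselves in part by local division, and SAMHD1 breaks down the deoxynucleotides that replication uses. In bulk RNA, more dividing cells and more RNA of a gene per cell cannot be told apart.

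The 42 genes moved together from library to library, and most of that movement lay within genotypes rather than between them. A score for each library, the mean of the variance-stabilized log2 values over the 42 genes, was 9.34, 7.31, 8.68, 8.30 and 8.27 in WT and 7.56, 7.78, 7.60 and 9.33 in SAMHD1 KO. It was 7.95, 7.76, 7.74 and 8.57 in MDA5 KO and 8.67, 7.92, 7.92 and 7.97 in RIG-I KO. The double knockouts gave 8.18, 8.14, 8.40 and 7.87 with MDA5 lacking and 8.28, 8.29, 8.16 and 8.51 with RIG-I lacking. Thus WT held both the highest library (WT 1) and the lowest (WT 2), and every genotype's range overlapped that of every other. Mean scores were 8.38 ± 0.74 (SD, n = 5) in WT, 8.07 ± 0.85 (n = 4) in SAMHD1 KO, 8.01 ± 0.39 (n = 4) in MDA5 KO, 8.12 ± 0.37 (n = 4) in RIG-I KO, 8.15 ± 0.22 (n = 4) in SAMHD1 MDA5 DKO and 8.31 ± 0.15 (n = 4) in SAMHD1 RIG-I DKO. The genotype means spanned 0.37, less than the within-genotype SD of 0.53, and genotype accounted for 7.8% of the score's variance. Without WT 3 and SAMHD1 KO 2 the span was 0.30 and the SD 0.55, and without SAMHD1 KO 2 and SAMHD1 MDA5 DKO 3 they were 0.37 and 0.55. Libraries of the double knockouts lay closer together than those of WT and SAMHD1 KO, and the difference in spread was not tested.

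**Figure D1:**
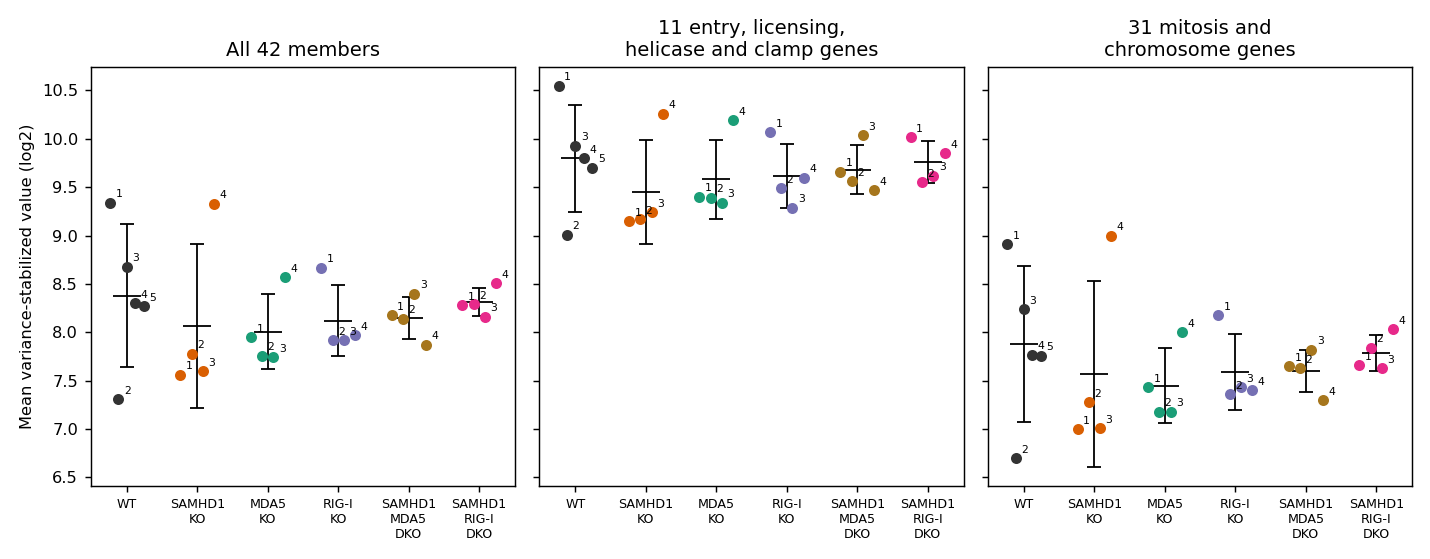
Score of each library by genotype, as the mean variance-stabilized log2 value over all 42 genes (left), the 11 genes of entry, licensing, helicase and clamp (middle) and the 31 genes of mitosis and chromosome structure (right). Points are libraries with their numbers, and horizontal marks with bars are the mean ± SD of a genotype (n = 5 for WT, n = 4 for the others). WT 1 and SAMHD1 KO 4 stand highest over all 42 genes at 9.34 and 9.33, and WT 2 lowest at 7.31.

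Gene by gene, the order of libraries repeated itself. In each genotype the highest and the lowest library were picked by the score of these same 42 genes. Agreement of the single genes with that pick is thus partly built in. The shares of all genes tested are given for scale and are no test of it. WT 1 was the highest WT library for 40 of the 42 genes, while it was so for 15.5% of all 13252 genes tested. WT 2 was the lowest for 41 of the 42, against 16.6% of all genes tested. Exceptions were Mki67 and Cenpe, highest in WT 3, and Pcna, lowest in WT 3. SAMHD1 KO 4 was the highest of its genotype for 42 of 42 genes (21.2% of all genes tested) and RIG-I KO 1 for 42 of 42 (25.6%). MDA5 KO 4 was so for 41 of 42 (25.5%), with Pcna the exception. SAMHD1 MDA5 DKO 3 was so for 32 of 42 (25.6%) and SAMHD1 RIG-I DKO 4 for 27 of 42 (19.9%). Of WT 1 and WT 2, the former was higher for all 42 genes, by a median of 3.99 on the log2 scale, whereas the median over all genes tested was -0.01. WT 1 and SAMHD1 KO 4, of different genotypes, differed by a median of -0.05, and 0 of the 42 genes were 2-fold higher in WT 1.

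**Figure D2:**
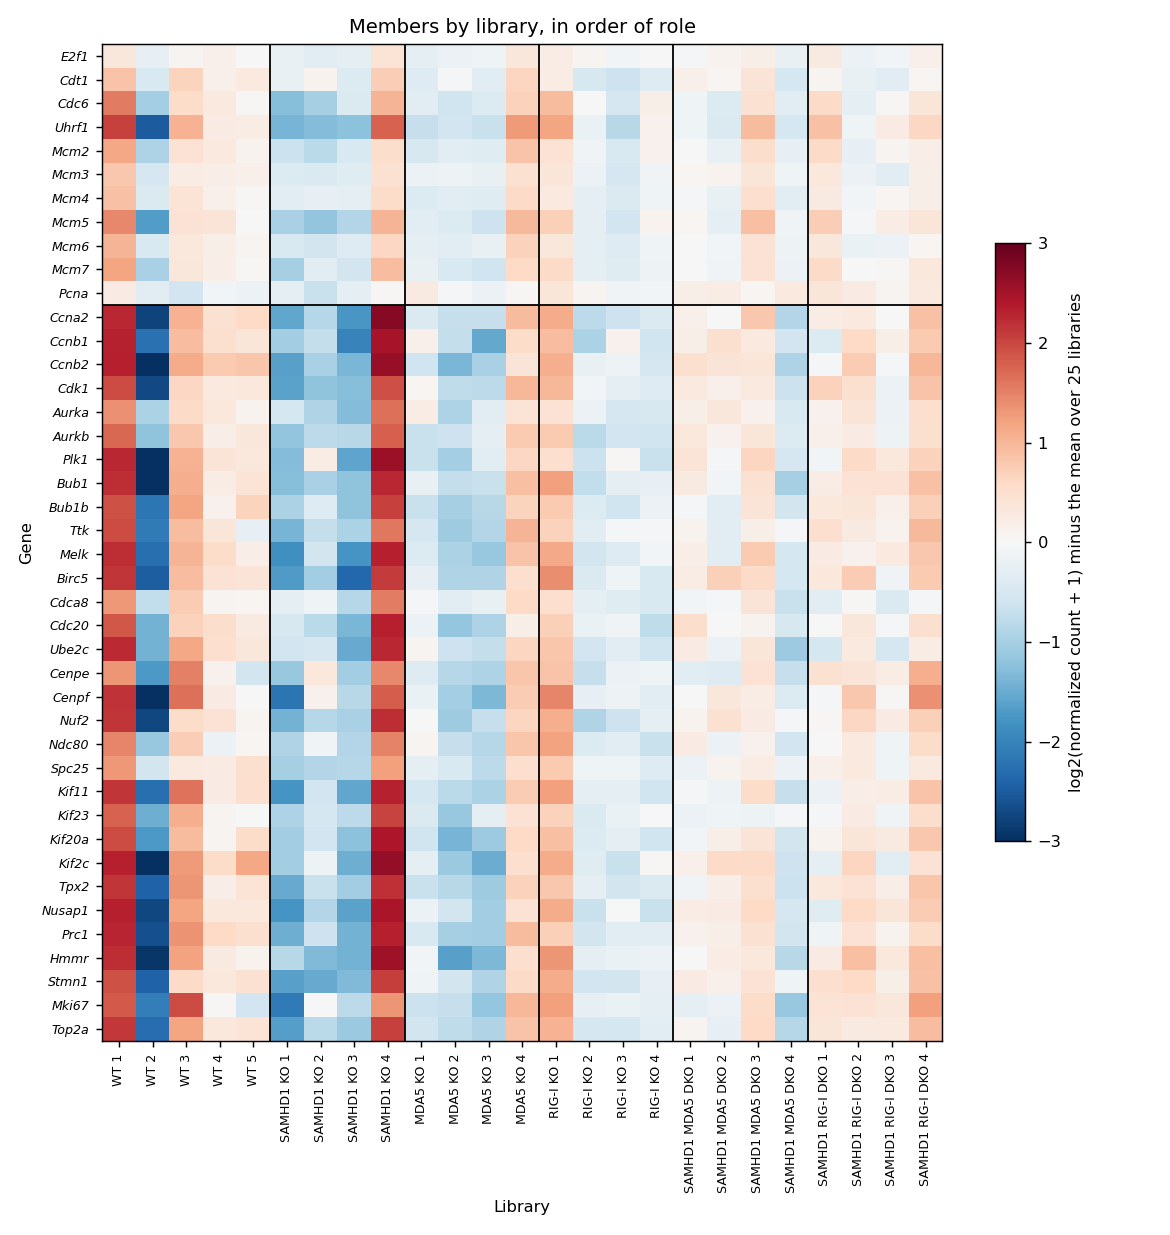
The 42 genes (rows, ordered by role) in the 25 libraries (columns), coloured by log2(normalized count + 1) minus the gene's mean over all libraries. Vertical lines separate genotypes and the horizontal line separates the 11 genes of entry, licensing, helicase and clamp (top) from the 31 of mitosis and chromosome structure. WT 1 and SAMHD1 KO 4 are high and WT 2 is low across nearly all rows, with Pcna and E2f1 the palest.

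The spread was far larger for genes of mitosis than for genes of replication. The within-genotype SD of log2 values had a median of 1.13 over the 31 genes of mitosis and chromosome structure, 0.43 over the 11 genes of entry, licensing, helicase and clamp, and 0.22 over all genes tested. In all, 32 of the 42 lay above the 90th percentile of all genes tested. Between the highest and lowest WT library the median fold was 22.2 for the mitosis genes, 2.76 for the replication genes and 1.54 for all genes tested. The same fold went from 16.9 over the 42 genes in WT to 11.4 in SAMHD1 KO, 3.17 in MDA5 KO, 2.78 in RIG-I KO, 1.99 with SAMHD1 and MDA5 lacking and 1.62 with SAMHD1 and RIG-I lacking. WT has 5 libraries and the others 4, which by itself widens a range. Pcna (SD 0.22) and E2f1 (SD 0.24) were the steadiest, and Kif2c (SD 1.49) and Cenpf (SD 1.46) the least steady. WT 2 held 1 read of Kif2c, 2 of Cenpf, 3 of Plk1 and 3 of Bub1. Every gene had at least 1 read in every library.

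Because the genes moved together, their promoters were read for the words that cell cycle genes are known to share. Of the 42 genes, 36 had a window of 250 bases before and 50 after the transcription start in the RefSeq table (build GRCm38.p6), and Mcm4, Ccna2, Aurkb, Kif20a, Tpx2 and Stmn1 had none. Both strands were searched. The CHR word was TTTGAA. The CCAAT word was its own name. An E2F word was any of TTCCCGC, or else TTGGCGC, or finally TTCGCGC. CHR was in the window of 19 of the 26 genes of mitosis and chromosome structure (73.1%) and of 1 of the 10 replication genes, Mcm2, against 17.9% of all 32851 windows. The E2F words were in 7 of the 10 replication genes (70.0%) and in 4 of the 26 others (15.4%), namely Ccnb1, Cdk1, Hmmr and Mki67, against 8.07% of all windows. CCAAT was in 27 of the 36 genes (75.0%) against 37.4% of all windows, and at least 2 copies were in 19 of the 36 (52.8%) against 11.7%. CHR and CCAAT stood together in 18 of the 36 genes, against 6.95% of all windows. The 20 genes with CHR had a median within-genotype SD of 1.07 (0.55 to 1.49) and the 16 without it 0.86 (0.22 to 1.33). The 11 with an E2F word had 0.79 (0.36 to 1.29), and these ranges overlap widely. All of the 20 but Mcm2 are genes of mitosis and chromosome structure, so CHR and role cannot be told apart in these medians. Among the 26 genes of mitosis and chromosome structure, SDs were 0.61 (Spc25) to 1.49 (Kif2c) with CHR. Without CHR they were 0.92 (Cenpe) to 1.33 (Bub1). Birc5 (SD 1.22), E2f1 (0.24), Melk (1.21), Nuf2 (1.16) and Nusap1 (1.27) held none of these words in their windows. Mcm3, with an SD of 0.36, held 3 CCAAT and 3 E2F words. Uhrf1, Mcm7 and Prc1 had 2 windows each and were counted once if either held the word. A word in a window is a description of these letters and not a measured binding site.

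Stretches from 160 bases before to 20 from the start are shown for 3 replication genes and 4 genes of mitosis or chromosome structure. They are a selection that sets the steady Pcna beside genes of wider spread, and cannot show whether the words go with spread. Capitals mark the words: the CCAAT, CHR and E2F words on either strand. In Mcm5 the 2 E2F words overlap by 4 bases in a single run. The Cdc6 stretch lies at chr11:98907991-98908170, plus strand. The Mcm5 stretch lies at chr8:75109349-75109528, plus strand. The Pcna stretch lies at chr2:132253161-132253340, minus strand. The Cdk1 stretch lies at chr10:69352893-69353072, minus strand. The Ttk stretch lies at chr9:83834529-83834708, plus strand. The Mki67 stretch lies at chr7:135716360-135716539, minus strand. The Top2a stretch lies at chr11:99024170-99024349, minus strand.
Cdc6: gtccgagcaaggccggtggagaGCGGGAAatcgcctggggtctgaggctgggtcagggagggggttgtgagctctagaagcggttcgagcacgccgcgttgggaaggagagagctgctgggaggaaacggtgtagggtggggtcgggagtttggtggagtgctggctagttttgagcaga
Mcm5: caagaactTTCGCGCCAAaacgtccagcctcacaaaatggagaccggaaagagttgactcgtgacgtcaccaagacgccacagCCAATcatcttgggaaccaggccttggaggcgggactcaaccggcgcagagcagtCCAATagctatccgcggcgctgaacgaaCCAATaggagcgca
Pcna: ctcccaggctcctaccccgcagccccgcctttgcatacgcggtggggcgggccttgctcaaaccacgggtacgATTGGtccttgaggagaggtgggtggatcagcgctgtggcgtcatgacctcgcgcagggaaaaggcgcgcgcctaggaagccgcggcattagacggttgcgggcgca
Cdk1: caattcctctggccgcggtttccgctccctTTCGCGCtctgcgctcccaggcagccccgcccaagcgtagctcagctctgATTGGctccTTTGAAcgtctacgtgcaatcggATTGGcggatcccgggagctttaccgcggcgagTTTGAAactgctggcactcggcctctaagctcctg
Ttk: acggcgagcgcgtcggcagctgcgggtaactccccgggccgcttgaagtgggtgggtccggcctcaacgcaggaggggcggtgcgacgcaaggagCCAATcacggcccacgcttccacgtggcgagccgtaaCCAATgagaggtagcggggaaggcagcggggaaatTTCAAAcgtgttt
Mki67: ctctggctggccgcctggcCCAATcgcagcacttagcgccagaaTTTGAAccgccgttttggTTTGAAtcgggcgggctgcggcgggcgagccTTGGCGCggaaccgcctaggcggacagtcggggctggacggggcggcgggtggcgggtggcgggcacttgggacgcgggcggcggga
Top2a: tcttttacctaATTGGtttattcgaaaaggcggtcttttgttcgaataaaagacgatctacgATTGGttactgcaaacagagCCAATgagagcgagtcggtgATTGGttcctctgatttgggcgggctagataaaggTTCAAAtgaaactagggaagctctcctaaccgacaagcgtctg
Cdk1 thus carried 2 CHR words, 2 CCAAT words and 1 E2F word in its stretch, Top2a 1 CHR word and 4 CCAAT words, and Pcna only 1 CCAAT word.

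**Figure D3:**
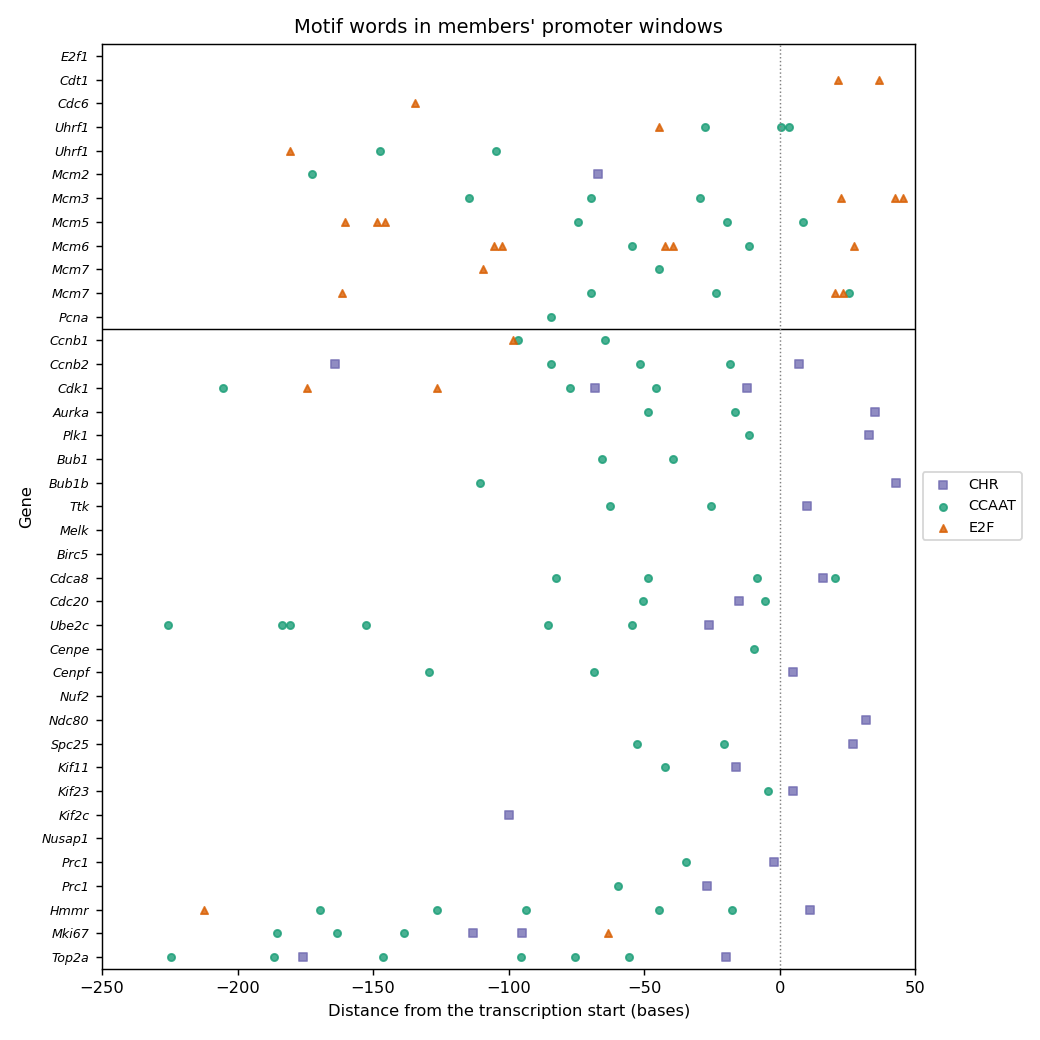
Positions of the CHR, CCAAT and E2F words in the promoter windows, as distance in bases from the transcription start to the word's centre, for the 36 genes with a window (a row with no mark holds none of the words). The horizontal line separates the replication genes (top) from the genes of mitosis and chromosome structure, and genes with 2 windows have a row for each. Squares (CHR) lie in 19 of the 26 genes of the lower part and in 1 of the 10 of the upper part, triangles (E2F) in 4 and 7, and circles mark CCAAT.

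Entry and licensing genes differed in how far they followed the libraries. E2F1 is the activating E2F of the G1 to S transition, CDT1 and CDC6 load the MCM helicase onto origins, and UHRF1 helps copy DNA methylation after replication. E2f1 was counted at 657, 435, 542, 577 and 508 in WT, 442, 407, 418 and 688 in SAMHD1 KO and 426, 454, 475 and 655 in MDA5 KO. The other genotypes gave 617, 458, 486 and 574 in SAMHD1 RIG-I DKO, 499, 553, 582 and 444 in SAMHD1 MDA5 DKO and 602, 544, 488 and 509 in RIG-I KO. SAMHD1 KO 4 and WT 1 were the highest, 1.69-fold above the lowest library at most, and all genotypes overlapped. Normalized counts of Cdt1 were 875, 350, 759, 533 and 589 in WT, 408, 513, 359 and 804 in SAMHD1 KO and 368, 468, 378 and 756 in MDA5 KO. SAMHD1 RIG-I DKO had 508, 414, 381 and 496, SAMHD1 MDA5 DKO 531, 499, 630 and 331 and RIG-I KO 557, 343, 312 and 366. Counts in RIG-I KO were all below the WT mean of 621.1 ± 204 (SD, n = 5), yet overlapped the WT range of 350 to 875. The Cdc6 counts were 330, 55.1, 163, 138 and 115 in WT, 45.7, 55.7, 82.7 and 227 in SAMHD1 KO and 90.1, 74.1, 84.4 and 181 in MDA5 KO. Counts in RIG-I KO were 216, 112, 78.7 and 126, those in SAMHD1 MDA5 DKO 102, 84.1, 153 and 89.2 and those in SAMHD1 RIG-I DKO 166, 91.4, 115 and 143. WT 1 exceeded WT 2 by 5.98-fold for this gene. Uhrf1 ranged from 39.1 in WT 2 to 926 in WT 1, a 23.7-fold span, the widest of the replication genes.

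The 6 subunits of the replicative helicase, Mcm2 to Mcm7, went the same way as each other. Their means over all libraries were between 641.3 (Mcm2) and 1365.4 (Mcm6), and per kilobase of exon between 92.2 (Mcm2) and 352 (Mcm3). For Mcm2 the counts were 1340, 316, 816, 743 and 649 in WT, 387, 343, 438 and 869 in SAMHD1 KO and 428, 474, 466 and 1095 in MDA5 KO. There were 901, 503, 633 and 687 in SAMHD1 RIG-I DKO, 595, 514, 865 and 510 in SAMHD1 MDA5 DKO and 812, 555, 438 and 657 in RIG-I KO. WT 1 was the highest library and WT 2 the lowest. Libraries gave Mcm5 counts of 2066, 238, 1017, 989 and 768 in WT, 384, 333, 409 and 1532 in SAMHD1 KO and 596, 565, 490 and 1483 in MDA5 KO. The other genotypes gave 1272, 738, 879 and 973 in SAMHD1 RIG-I DKO, 794, 630, 1405 and 706 in SAMHD1 MDA5 DKO and 1250, 614, 504 and 811 in RIG-I KO. The gap of 8.67-fold between WT 1 and WT 2 was the widest of the helicase genes. Mcm3, Mcm4 and Mcm6 spanned 2.48-fold, 2.52-fold and 2.95-fold over the 25 libraries, and Mcm7 4.53-fold. SAMHD1 RIG-I DKO 1 was the highest of its genotype for the 11 genes of entry, licensing, helicase and clamp, whereas 27 of the 31 genes of mitosis and chromosome structure were highest in SAMHD1 RIG-I DKO 4. In RIG-I KO, all 11 replication genes were lowest in RIG-I KO 3, where only 5 of the 31 mitosis genes were lowest. The replication and the mitosis genes thus ranked these libraries differently within a genotype.

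Pcna encodes the sliding clamp that holds DNA polymerases on their template and also serves in DNA repair. It lies on chr2:132249162-132253314 in GENCODE M21 (GRCm38), and was the most abundant of the 42 genes per kilobase of exon, at a mean of 1340 normalized counts, with Mcm3 next at 352. Pcna was counted at 3773, 2512, 2119, 2988 and 2782 in WT, 2579, 1976, 2631 and 3251 in SAMHD1 KO and 3791, 3060, 2812 and 3222 in MDA5 KO. SAMHD1 RIG-I DKO had 4031, 3775, 3327 and 3847, SAMHD1 MDA5 DKO 3546, 3709, 3295 and 3893 and RIG-I KO 4082, 3361, 2944 and 3001. Every library of the double knockouts was above every library of SAMHD1 KO. Between SAMHD1 RIG-I DKO and SAMHD1 KO, groups did not overlap, in either direction, for 18.6% of all genes tested. Between SAMHD1 MDA5 DKO and SAMHD1 KO the share was 11.2%. WT 3 and SAMHD1 KO 2, the libraries that stood apart on the first component, were the lowest of all 25 for Pcna. Means were 2609 ± 521 (SD, n = 4) in SAMHD1 KO, 2835 ± 617 (n = 5) in WT, 3221 ± 416 (n = 4) in MDA5 KO, 3347 ± 523 (n = 4) in RIG-I KO, 3611 ± 254 (n = 4) in SAMHD1 MDA5 DKO and 3745 ± 299 (n = 4) in SAMHD1 RIG-I DKO. In that order, neighbouring genotypes differed by less than the larger of their SDs. Genotype accounted for 49.2% of the variance of Pcna, against a median of 9.57% over the 42 genes and of 30.1% over all genes tested.

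Pcna rose in SAMHD1 RIG-I DKO against SAMHD1 KO by 0.54 ± 0.15 on the log2 scale (1.45-fold, standard error, limma adjusted p = 0.0292). It was higher in all 4 libraries than in all 4 of SAMHD1 KO, and 18.6% of all genes tested did not overlap there. Against WT the same double knockout had a log2 difference of 0.42 ± 0.14 (adjusted p = 0.0536), and WT 1, at 3773, lay within its range. SAMHD1 MDA5 DKO had a log2 difference of 0.49 ± 0.15 against SAMHD1 KO (limma adjusted p = 0.0882), with no overlap, as for 11.2% of all genes tested. Its difference against WT was 0.37 ± 0.14 (limma adjusted p = 0.167). SAMHD1 KO itself had a log2 difference of -0.12 ± 0.14 against WT (adjusted p = 0.972). The authors' deposited table gave Pcna an adjusted p of 0.0124 between SAMHD1 KO and SAMHD1 RIG-I DKO, of 0.0463 between SAMHD1 KO and SAMHD1 MDA5 DKO and of 0.045 between SAMHD1 RIG-I DKO and WT. The Pcna call in SAMHD1 RIG-I DKO against SAMHD1 KO ended without SAMHD1 KO 2 (log2 difference 0.41, adjusted p = 0.0947), without SAMHD1 RIG-I DKO 1 (0.0764), 2 (0.0825) or 4 (0.0676), in a limma fit of the 2 genotypes alone (0.0637), and without SAMHD1 KO 2 and SAMHD1 MDA5 DKO 3, the libraries of intermediate Samhd1 (0.0983). In SAMHD1 MDA5 DKO against SAMHD1 KO the Pcna difference was 0.36 without WT 3 and SAMHD1 KO 2 (adjusted p = 0.117) and 0.41 without the libraries of intermediate Samhd1 (adjusted p = 0.204). The call in SAMHD1 RIG-I DKO against SAMHD1 KO held without WT 3 and SAMHD1 KO 2 together (log2 difference 0.41, adjusted p = 0.0351). Against WT, Pcna passed in SAMHD1 RIG-I DKO without WT 1 (0.53, adjusted p = 0.0266) and without WT 4 (0.45, adjusted p = 0.0471).

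**Figure D4:**
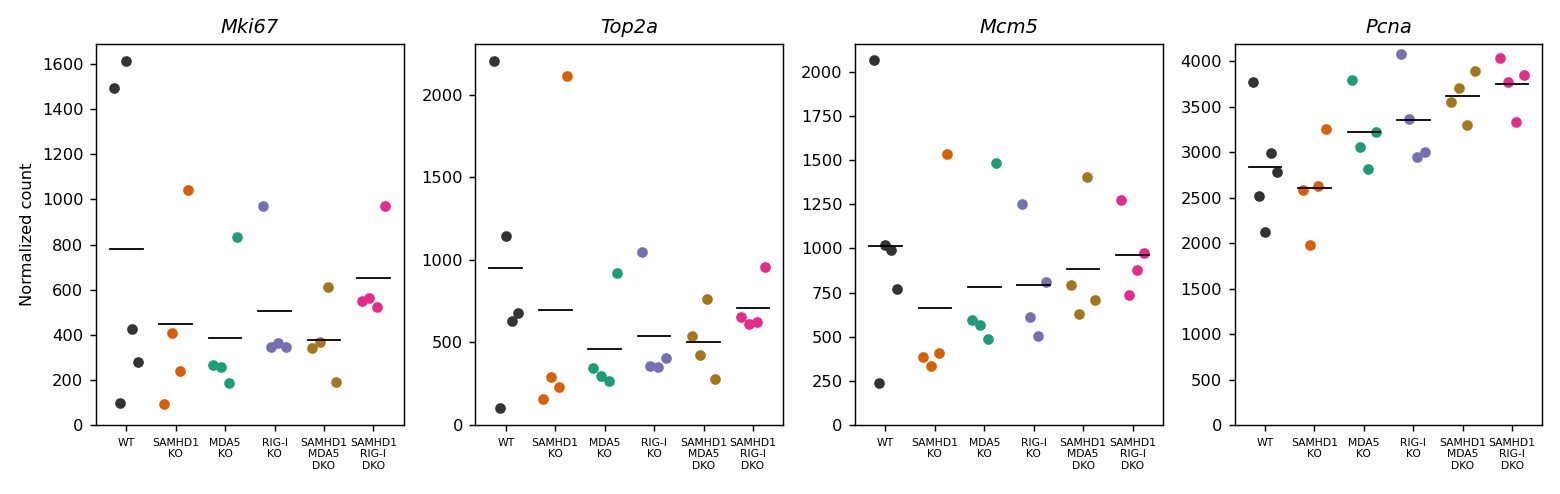
Normalized counts of Mki67, Top2a, Mcm5 and Pcna by genotype, with each point a library and the line the genotype mean (n = 5 for WT, n = 4 for the others). Mki67, Top2a and Mcm5 have a single high library in SAMHD1 KO, MDA5 KO and RIG-I KO. For Pcna all libraries of the double knockouts lie above all of SAMHD1 KO. Groups did not overlap against SAMHD1 KO for 18.6% (RIG-I lacking) and 11.2% (MDA5 lacking) of all genes tested.

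The cyclins and their kinase followed the libraries closely. Cyclin A2 acts in S phase and G2, and cyclins B1 and B2 bind CDK1 to drive entry into mitosis. Normalized counts of Ccna2 were 722, 21, 312, 208 and 228 in WT, 50.2, 81.9, 44.4 and 996 in SAMHD1 KO and 110, 91.8, 93.3 and 292 in MDA5 KO. Counts in RIG-I KO were 326, 86.1, 96.5 and 110, those in SAMHD1 MDA5 DKO 167, 150, 263 and 81.4 and those in SAMHD1 RIG-I DKO 174, 184, 151 and 276. SAMHD1 KO 4 and WT 1 were the highest and WT 2 the lowest. The Ccnb1 counts were 256, 10, 98, 71.4 and 66.3 in WT, 24.5, 30.7, 12.1 and 287 in SAMHD1 KO and 56.9, 30.6, 16.9 and 75.8 in MDA5 KO. There were 38.2, 77.8, 57.8 and 88.5 in SAMHD1 RIG-I DKO, 58.2, 71.4, 62.6 and 34.3 in SAMHD1 MDA5 DKO and 97.6, 26, 55.6 and 33.4 in RIG-I KO. The order was the same, with SAMHD1 KO 3 next to WT 2 at the low end. For Cdk1 the counts were 354, 13, 140, 110 and 112 in WT, 29, 38.7, 36.3 and 345 in SAMHD1 KO and 94.4, 52.3, 51.6 and 180 in MDA5 KO. The other genotypes gave 147, 127, 79.1 and 165 in SAMHD1 RIG-I DKO, 110, 100, 111 and 56.9 in SAMHD1 MDA5 DKO and 180, 85.1, 73.5 and 68.8 in RIG-I KO. SAMHD1 KO 4, at 345, stood above the 29.0 to 38.7 of the other libraries of its genotype. Ccnb2 ranged from 8.01 in WT 2 to 550 in SAMHD1 KO 4.

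The mitotic kinases and checkpoint genes are Aurka and Aurkb (Aurora kinases of the spindle poles and of the chromosomal passenger complex), Plk1 (Polo kinase), Bub1, Bub1b and Ttk (spindle checkpoint) and Melk, a kinase expressed in dividing cells. Libraries gave Aurkb counts of 503, 66.1, 268, 175 and 192 in WT, 67, 87.5, 85.8 and 528 in SAMHD1 KO and 96.5, 99.7, 124 and 265 in MDA5 KO. SAMHD1 RIG-I DKO had 171, 182, 137 and 214, SAMHD1 MDA5 DKO 191, 167, 196 and 115 and RIG-I KO 264, 86.1, 102 and 101. It had the highest mean of the group, and WT 1 and SAMHD1 KO 4 were again close to each other. Plk1 was counted at 262, 3, 111, 70.6 and 67.3 in WT, 21.2, 62.5, 17.2 and 321 in SAMHD1 KO and 33.3, 25.7, 42.7 and 82.7 in MDA5 KO. Counts in RIG-I KO were 76.4, 34, 54.6 and 33.4, those in SAMHD1 MDA5 DKO 70.7, 51.8, 84.7 and 37.3 and those in SAMHD1 RIG-I DKO 50.1, 80.4, 67.2 and 86.6. Between WT 1 and WT 2 the ratio was 87.3 with an exact 95% counting interval of 29.5 to 426, which covers counting error only. Normalized counts of Ttk were 136, 7.01, 66, 44.2 and 28.5 in WT, 12.3, 20.5, 17.2 and 104 in SAMHD1 KO and 23.6, 15.8, 17.9 and 70.5 in MDA5 KO. There were 48.9, 41.5, 36.6 and 68.1 in SAMHD1 RIG-I DKO, 36.4, 26.5, 38.7 and 32.4 in SAMHD1 MDA5 DKO and 55.2, 27, 32.5 and 33.4 in RIG-I KO. It had the lowest mean of the group, 41.6, with WT 1 the highest library and WT 2 the lowest. Bub1, Bub1b, Aurka and Melk spanned 77.1-fold, 19-fold, 8.02-fold and 26.8-fold over the 25 libraries.

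Birc5 (survivin) and Cdca8 (borealin) belong to the chromosomal passenger complex, and Cdc20 and Ube2c to the anaphase-promoting ubiquitin ligase that ends mitosis. The Cdca8 counts were 292, 70.1, 199, 123 and 121 in WT, 96, 107, 64.6 and 342 in SAMHD1 KO and 115, 91.8, 100 and 178 in MDA5 KO. The other genotypes gave 93.1, 120, 86.7 and 114 in SAMHD1 RIG-I DKO, 110, 114, 153 and 73.5 in SAMHD1 MDA5 DKO and 167, 95.1, 91.3 and 85.5 in RIG-I KO. It was the steadiest of the group, with a within-genotype SD of 0.62. For Birc5 the counts were 319, 12, 135, 96.1 and 93.8 in WT, 21.2, 34.1, 13.1 and 305 in SAMHD1 KO and 60.1, 37.5, 37.7 and 101 in MDA5 KO. SAMHD1 RIG-I DKO had 88.3, 121, 65.5 and 122, SAMHD1 MDA5 DKO 83.2, 117, 106 and 49 and RIG-I KO 188, 52, 65.1 and 51.1. WT 2 and SAMHD1 KO 3 were the lowest, at 12 and 13.1. Cdc20 spanned 13.9-fold and Ube2c 14.1-fold.

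Kinetochore genes encode the NDC80 complex, which grips microtubules (Ndc80, Nuf2, Spc25), and the large proteins CENP-E and CENP-F. Libraries gave Cenpe counts of 183, 21, 207, 79.1 and 48.9 in WT, 32.4, 89.8, 34.3 and 199 in SAMHD1 KO and 54.7, 39.5, 37.7 and 129 in MDA5 KO. Counts in RIG-I KO were 132, 44, 64 and 65.8, those in SAMHD1 MDA5 DKO 58.2, 55.3, 98.6 and 44.1 and those in SAMHD1 RIG-I DKO 100, 94.7, 84.2 and 154. WT 3 exceeded WT 1 for this gene. Spc25 was counted at 147, 40.1, 72.8, 70.6 and 82.6 in WT, 29, 31.8, 32.3 and 140 in SAMHD1 KO and 48.3, 42.5, 33.8 and 83.6 in MDA5 KO. There were 65.6, 71.9, 53.6 and 73 in SAMHD1 RIG-I DKO, 52, 63.3, 69.1 and 52 in SAMHD1 MDA5 DKO and 102, 54, 53.5 and 45.2 in RIG-I KO. SAMHD1 KO 1, 2 and 3 were the lowest of all libraries. Nuf2 and Ndc80 spanned 34.5-fold and 6.41-fold. Cenpf, the least abundant of the 42 per kilobase of exon at 4.92, ran from 2 in WT 2 to 251 in WT 1, a ratio of 125 with an exact 95% counting interval of 34.3 to 1040.

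Genes of the spindle and of cytokinesis include the motors Kif11, Kif20a, Kif23 and Kif2c, the spindle assembly factor Tpx2, the microtubule-bundling Nusap1 and Prc1, Hmmr, and Stmn1, which destabilises microtubules. Normalized counts of Stmn1 were 1627, 79.1, 646, 535 and 591 in WT, 138, 150, 173 and 1810 in SAMHD1 KO and 393, 294, 231 and 639 in MDA5 KO. The other genotypes gave 612, 656, 489 and 800 in SAMHD1 RIG-I DKO, 516, 481, 589 and 397 in SAMHD1 MDA5 DKO and 937, 289, 297 and 363 in RIG-I KO. Stmn1 was the most abundant of the group, with a mean of 549.3, and also per kilobase of exon (286). The Kif2c counts were 183, 1, 86.4, 51.9 and 79.5 in WT, 16.7, 31.8, 12.1 and 226 in SAMHD1 KO and 29, 15.8, 11.9 and 50.5 in MDA5 KO. SAMHD1 RIG-I DKO had 28.6, 55.8, 28.1 and 47.7, SAMHD1 MDA5 DKO 39.5, 53, 53.4 and 22.5 and RIG-I KO 77.5, 27, 22 and 36.4. The ratio of SAMHD1 KO 4 to WT 2 was 226 with an exact 95% counting interval of 40.1 to 8950, since WT 2 held 1 read. Hmmr and Nusap1 spanned 53.1-fold and 39.6-fold, Prc1 33.1-fold, Tpx2 25.5-fold, Kif11 24.7-fold, Kif20a 18.2-fold and Kif23 11.4-fold.

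Mki67, which encodes the Ki-67 antigen used to count dividing cells, and Top2a, the topoisomerase that untangles sister chromatids, stand for chromosome structure. For Mki67 the counts were 1494, 98.2, 1613, 426 and 279 in WT, 94.8, 409, 241 and 1041 in SAMHD1 KO and 266, 258, 186 and 833 in MDA5 KO. Counts in RIG-I KO were 973, 348, 362 and 347, those in SAMHD1 MDA5 DKO 342, 369, 612 and 189 and those in SAMHD1 RIG-I DKO 551, 561, 524 and 970. WT 3 and WT 1 were the highest of all libraries, and SAMHD1 KO 1 and WT 2 the lowest. Libraries gave Top2a counts of 2201, 103, 1145, 630 and 678 in WT, 160, 291, 232 and 2114 in SAMHD1 KO and 348, 296, 269 and 922 in MDA5 KO. There were 653, 613, 621 and 956 in SAMHD1 RIG-I DKO, 537, 426, 765 and 281 in SAMHD1 MDA5 DKO and 1046, 356, 354 and 408 in RIG-I KO. WT 1 and SAMHD1 KO 4 were the only libraries above 2000, and every genotype's range overlapped every other. SAMHD1 KO had a log2 difference from WT of -0.73 ± 0.71 for Top2a (limma adjusted p = 0.965) and of -0.64 ± 0.71 for Mki67 (adjusted p = 0.972), with standard errors close to the size of the differences. Leaving out 1 library at a time, the Top2a difference ran from -1.54 (without SAMHD1 KO 4) to -0.287 (without WT 1) and that of Mki67 from -1.22 (without WT 2) to -0.0656 (without SAMHD1 KO 1).

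Comparisons between genotypes were made with limma over all 13252 genes tested, at an adjusted p under 0.05. Of the 42 genes, 0 were called in SAMHD1 KO against WT, where 0.0151% of all genes tested were called, and 0 in MDA5 KO against WT (background 0.0679%). There were 0 in RIG-I KO against WT (4.21%), 0 in SAMHD1 MDA5 DKO against WT (0.332%) and 0 in SAMHD1 RIG-I DKO against WT (12.1%). Against SAMHD1 KO, 0 were called in SAMHD1 MDA5 DKO (0.121%) and 1, Pcna, in SAMHD1 RIG-I DKO, where 10.5% of all genes tested were called and 5.62% were higher. Against the single sensor knockouts the count was 0 for SAMHD1 MDA5 DKO (0.00755%) and 0 for SAMHD1 RIG-I DKO (0.0679%), and it was 0 in SAMHD1 MDA5 DKO against SAMHD1 RIG-I DKO (0.158%). A moderated F test of any difference among the 6 genotypes called 0 of the 42 and 9.87% of all genes tested, with Pcna at an adjusted p of 0.0664. At an unadjusted p under 0.05 the count was 0 or 1 of 42 in each of these comparisons, while 27.2% of all genes tested passed it in SAMHD1 RIG-I DKO against SAMHD1 KO, and 29.5% did so for the same double knockout against WT. A voom fit of the recovered reads gave the same counts of called members. Against SAMHD1 KO, groups did not overlap for 1 member, Pcna, in either double knockout (18.6% of all genes tested with RIG-I lacking, 11.2% with MDA5 lacking). They did not overlap for 0 of the 42 genes in the other comparisons, with shares of all genes tested of 0.898% for SAMHD1 KO, 1.09% for MDA5 KO, 13.0% for RIG-I KO, 4.84% and 15.4% for the double knockouts with MDA5 and with RIG-I lacking, each against WT. The shares were 2.72% and 4.93% for these double knockouts against the single sensor knockouts and 9.78% between the double knockouts. The smallest p of a gene other than Pcna was that of Spc25 in SAMHD1 KO against WT (log2 difference -0.73 ± 0.39, adjusted p = 0.965) and in MDA5 KO against WT (-0.62 ± 0.39, adjusted p = 0.850), of Cdt1 in RIG-I KO against WT (-0.62 ± 0.27, adjusted p = 0.158) and of Cenpe between the double knockouts (adjusted p = 0.728).

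The 42 genes leaned to the same side in most comparisons, although 1 of them, Pcna, passed in 1 comparison. In SAMHD1 KO against WT all 42 had a log2 difference below 0, with a median of -0.546 against 0.00416 over all genes tested. The median was -0.504 in MDA5 KO (41 of 42 below 0) and -0.285 in RIG-I KO (40 of 42), both against WT. These comparisons share the WT libraries, so they are not separate evidence. Nor are the 42 genes, which moved together from library to library. Without WT 1 the medians were -0.183, -0.167 and 0.0694, and without WT 2 they were -1.09, -1.11 and -0.832, so that the direction for RIG-I KO turned with 1 library. The SAMHD1 KO median was also -1.2 without SAMHD1 KO 4, -0.27 without SAMHD1 KO 1 and -0.255 without SAMHD1 KO 3. That of MDA5 KO was -0.324 without MDA5 KO 2 and -0.865 without MDA5 KO 4. That of RIG-I KO was -0.14 without WT 3, -0.141 without RIG-I KO 2 and -0.595 without RIG-I KO 1. SAMHD1 MDA5 DKO against WT had a median of -0.266, which was 0.0949 without WT 1, -0.823 without WT 2, -0.111 without WT 3 and -0.102 without SAMHD1 MDA5 DKO 4. SAMHD1 RIG-I DKO against WT had a median of 0.0247, which was 0.426 without WT 1, -0.491 without WT 2, -0.1 without SAMHD1 RIG-I DKO 4, -0.00924 with a pseudocount of 5 and -0.076 on variance-stabilized values. Against SAMHD1 KO the double knockouts had medians of 0.298 (MDA5 lacking) and 0.563 (RIG-I lacking), of -0.0144 and 0.289 without SAMHD1 KO 1, and of 0.0228 and 0.345 without SAMHD1 KO 3. With MDA5 lacking it was 0.197 without SAMHD1 KO 2 and 0.126 without SAMHD1 MDA5 DKO 3. Without SAMHD1 KO 4 they were 0.991 and 1.3, and in SAMHD1 RIG-I DKO against SAMHD1 KO Stmn1 then passed as well (log2 difference 2.03 ± 0.62, adjusted p = 0.0467). Without WT 3 and SAMHD1 KO 2 the medians kept their sign, at -0.273, -0.351 and -0.14 for SAMHD1 KO, MDA5 KO and RIG-I KO against WT, -0.111 and 0.18 for the double knockouts against WT, and 0.197 and 0.453 for these against SAMHD1 KO. Without the libraries of intermediate Samhd1 the last 2 were 0.0136 and 0.453. Loss of SAMHD1 on top of a missing sensor gave medians of 0.244 (against MDA5 KO) and 0.35 (against RIG-I KO). The former was 0.125 without MDA5 KO 2, 0.103 without MDA5 KO 3, 0.617 without MDA5 KO 4, 0.159 without SAMHD1 MDA5 DKO 3 and 0.396 without SAMHD1 MDA5 DKO 4. The latter was 0.679 without RIG-I KO 1 and 0.22 without RIG-I KO 2.

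**Figure D5:**
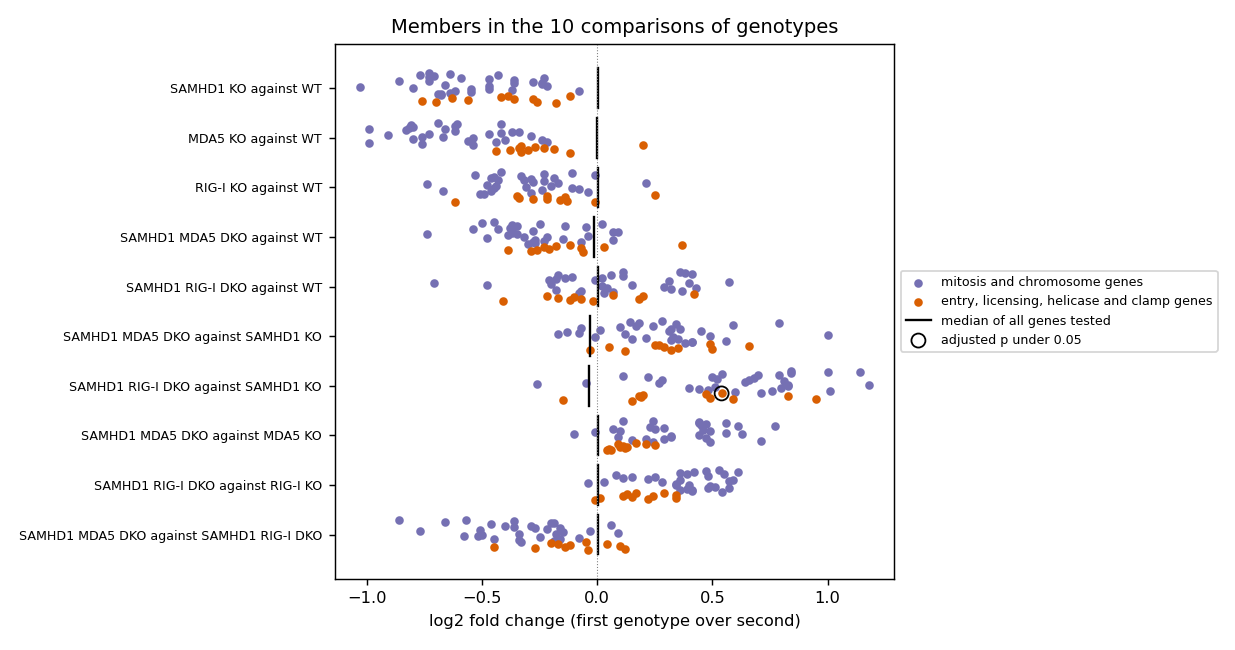
Log2 differences of the 42 genes in the 10 comparisons of genotypes, with orange points for the 11 genes of entry, licensing, helicase and clamp and purple points for the 31 genes of mitosis and chromosome structure. Vertical marks are the median of all genes tested and the ring marks the adjusted p under 0.05, which Pcna reached in SAMHD1 RIG-I DKO against SAMHD1 KO. Most points lie left of the mark in the single knockouts against WT and right of it in the double knockouts against single knockouts.

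The interaction of the knockouts asks whether SAMHD1 loss acted differently with a sensor missing. It was above 0 for 42 of 42 genes with MDA5 (median 0.803) and for 42 of 42 with RIG-I (median 0.903), against -0.0166 and -0.00603 over all genes tested. Of the 42, 0 passed in either (limma, background 0.00% in both; 0 at an unadjusted p under 0.05; 0 by voom), and the smallest p was that of Spc25 (log2 0.98 ± 0.56 with MDA5, adjusted p = 0.980; 0.84 ± 0.56 with RIG-I, adjusted p = 1). Leaving out 1 library, the median with MDA5 was 0.422 without WT 1, 1.43 without WT 2, 0.52 without SAMHD1 KO 1 and 1.51 without SAMHD1 KO 4. With RIG-I it was 0.509 without WT 1, 1.51 without WT 2, 0.593 without SAMHD1 KO 3 and 1.59 without SAMHD1 KO 4. Without WT 3 and SAMHD1 KO 2 the medians were 0.49 and 0.637. Both interactions rest on the same WT and SAMHD1 KO libraries. The 42 genes moved together from library to library, so their shared sign is not 42 separate observations.

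The direction depended in part on how libraries were averaged. In the authors' deposited table, SAMHD1 KO was above SAMHD1 MDA5 DKO for 32 of the 42 genes (median log2 0.40), whereas on the mean of log2 values SAMHD1 MDA5 DKO was above SAMHD1 KO for 36 of 42. For SAMHD1 RIG-I DKO against WT the authors' deposited table had 2 of 42 genes above 0 (median -0.37) where the mean of log2 values had 23 of 42. For Top2a the SAMHD1 KO mean of 699.2 ± 945 (SD, n = 4) holds SAMHD1 KO 4 at 2114, while the other 3 libraries lie at 160, 232 and 291, below 3 of the 4 SAMHD1 MDA5 DKO libraries. Against WT, the authors' deposited table called 0 members in SAMHD1 KO (background 0.196%), RIG-I KO (8.85%), MDA5 KO (0.158%) and SAMHD1 MDA5 DKO (1.76%). It called Pcna alone in SAMHD1 KO against SAMHD1 MDA5 DKO (6.62%), in SAMHD1 KO against SAMHD1 RIG-I DKO (15.0%) and in SAMHD1 RIG-I DKO against WT (16.1%).

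Other genes of the pathway ran with the 42 or apart from them, and the lists by role, given here as medians, were mixed within. Of 49 other mitosis genes, 46 were highest in WT 1 among WT libraries, with a median WT 1 to WT 2 difference of 3.74 on the log2 scale. The 10 genes of deoxynucleotide synthesis had 1.74, led by Rrm2, the S-phase subunit of ribonucleotide reductase, at 551.9 in WT 1 and 38.1 in WT 2. The 18 DNA damage checkpoint genes had 1.46 and the 32 genes of the replication fork and of origin firing 1.09. The 28 genes of G1 cyclins, CDKs and the Rb, E2F and DREAM proteins had 0.45, and the 7 CDK inhibitors -0.19. Among those 28, E2f7 had 4.96, Ccne2 4.8 and Mybl2 4.48, but Tfdp2 had -0.01 and Rb1 -0.24. Of the other mitosis genes, Neil3 had 6.37 and Kif4 6.1, but Zwint had -0.04 and Pttg1 -0.26. The fork and origin genes ran from 0.06 (Gins4) to 4.25 (Pole). Pairwise tests of these lists passed in SAMHD1 RIG-I DKO, in which 12.1% of all genes tested were called against WT.

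Against WT, 3 of the 7 CDK inhibitors passed in SAMHD1 RIG-I DKO, where 12.1% of all genes tested passed in either direction. Cdkn2a, which encodes p16 and p19 ARF, fell by 1.91 ± 0.30 on the log2 scale (limma adjusted p = 0.00171), from 457.0 ± 208 (SD, n = 5) in WT to 113.9 ± 39.8 (n = 4). Every other knockout had a lower Cdkn2a mean than WT too. With SAMHD1 and MDA5 lacking it was 166.4 ± 33.6 (n = 4), and with SAMHD1 alone lacking 185.1 ± 30.4 (n = 4). Loss of a sensor alone gave 250.5 ± 86.6 (RIG-I, n = 4) and 317.8 ± 59.2 (MDA5, n = 4). Against WT their log2 differences were -1.33, -1.17, -0.78 and -0.4, each ± 0.30. None passed (limma adjusted p = 0.0514, 0.355, 0.113 and 0.857). For SAMHD1 RIG-I DKO, Cdkn1a (p21) fell by 0.80 ± 0.21 (adjusted p = 0.0196) and Cdkn1b (p27) rose by 0.41 ± 0.10 (adjusted p = 0.0182). Myc, a driver of cell growth, fell by 1.00 ± 0.27 (adjusted p = 0.0234) and Rbl2, a pocket protein of the DREAM complex, fell by 0.25 ± 0.08 (adjusted p = 0.045), 2 of 28 genes of that list. Rrm2b, the ribonucleotide reductase subunit used outside S phase, rose by 0.29 ± 0.09 (adjusted p = 0.0388), 1 of 10. Of the 49 other mitosis genes 2 fell, Cdc25b by 0.52 ± 0.16 (adjusted p = 0.0391) and Racgap1 by 0.46 ± 0.14 (adjusted p = 0.0402). The counts of 2 of 28, 1 of 10 and 2 of 49 were each below the 12.1% of all genes tested. Of the 32 fork genes and the 18 checkpoint genes 0 passed. At an unadjusted p under 0.05 there were 3 and 2 of them, against 29.5% of all genes tested. Without WT 3 and SAMHD1 KO 2, Rbl2 no longer passed (adjusted p = 0.0564), and the other 7 genes named did (adjusted p at most 0.0433). Markers of other cells differed in this comparison too. Of the 10 B cell genes 9 fell (adjusted p at most 0.0154), as did 4 of the 5 mast cell genes (at most 0.02), and the dendritic cell genes Flt3 by 2.38 ± 0.69 (adjusted p = 0.0311) and Cd209a by 0.91 ± 0.30 (adjusted p = 0.0488). Of the 12 large macrophage genes, Selp fell by 0.38 ± 0.09, Fn1 by 0.61 ± 0.16 and Csf1r by 0.41 ± 0.12 (limma adjusted p at most 0.0305). Others of that list were at their highest of all libraries in this genotype. These were Timd4, Icam2 and Cd5l in SAMHD1 RIG-I DKO 1 and Cd9 and Lyz2 in SAMHD1 RIG-I DKO 2. Of the 7 measured small macrophage genes, Plac8 rose by 2.66 ± 0.76 (limma adjusted p = 0.0286). The part of these cells in these values was not tested.

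Against SAMHD1 KO, 1 of 32 fork genes passed in SAMHD1 RIG-I DKO, where 10.5% of all genes tested passed, and 11 (34.4%) had an unadjusted p under 0.05, against 27.2% of all genes tested. That gene was Rpa1, a subunit of the single-strand binding protein RPA, which rose by 0.48 ± 0.15 (limma adjusted p = 0.046). Myc and Ccnd2, the gene of cyclin D2, fell by 0.94 ± 0.28 (adjusted p = 0.0388) and 1.28 ± 0.39 (adjusted p = 0.04). Trp53, the gene of p53, fell by 0.36 ± 0.11 (adjusted p = 0.0376), 1 of 18 checkpoint genes. Ccnd2 also passed without WT 3 and SAMHD1 KO 2 (adjusted p = 0.0185) and without the libraries of intermediate Samhd1 (0.0459). Rpa1 (0.0823 and 0.12), Myc (0.0764 and 0.118) and Trp53 (0.0698 and 0.107) passed in neither of these fits. In the other pairwise comparisons and in both interactions 0 genes of the 6 pathway lists passed. In the F test among the 6 genotypes, Cdkn2a (adjusted p = 0.00387) and Dck, a kinase of the deoxynucleoside salvage pathway (adjusted p = 0.0385), passed, and both did so in these fits with libraries left out.

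Markers of other cells went with the values of the 42 genes in some libraries and not in others. The sum of 3 measured erythroid genes, all of them globins, was 952.6 in WT 1 and 1750.3 in SAMHD1 KO 4, the highest of their genotypes, but 10.6 in RIG-I KO 1 and 81.0 in MDA5 KO 4, where MDA5 KO 3 was highest at 743.5. The sum of 5 mast cell genes was 1279.7 in SAMHD1 KO 4 and at most 208 as the median of any genotype. The sum of 10 B cell genes, whose highest single member was Ighm, was 66.1 to 87.1 in RIG-I KO and 71.6 to 93.1 in SAMHD1 RIG-I DKO, against 136.9 to 2420.5 in WT, 345.6 to 4320.6 in SAMHD1 KO, 778.3 to 1594.5 in MDA5 KO and 268.1 to 724.5 in SAMHD1 MDA5 DKO. WT 3 and SAMHD1 KO 2, the lowest libraries for Pcna, were also the lowest of their genotypes in B cell genes, at 136.87 and 345.61. RIG-I KO and SAMHD1 RIG-I DKO, the genotypes lowest in B cell genes, had Pcna at 2944 to 4082 and 3327 to 4031. Between genotypes, these cells and the genotype cannot be told apart. SAMHD1 KO 1, highest in B cell genes at 4320.6, had Pcna at 2579. Pax5 was at 0 in 2 libraries and Ebf1 in 6. Of 8 T cell genes 3 were measured, with sums of 8.40 to 111.1, and of 9 granulocyte genes 2, with sums of 21.4 to 73.6. Sums of 3 dendritic cell genes were 390.2 to 1647.8, of 7 genes of small macrophages and monocytes 4172.3 to 6342.6 and of 12 genes of large peritoneal macrophages 2782688.7 to 4366330.9. The 6 mesothelial and fibroblast genes are not in the table as given here. In SAMHD1 RIG-I DKO against SAMHD1 KO, Pcna passed, as did 10.5% of all genes tested in either direction. There 9 of the 10 B cell genes and 5 of the 5 mast cell genes fell (limma adjusted p under 0.05). In the same comparison Flt3 fell by 2.53 ± 0.73 (adjusted p = 0.0337), Selp by 0.33 ± 0.09 (adjusted p = 0.0292) and Csf1r by 0.40 ± 0.13 (adjusted p = 0.0431), while Cd9 of the large macrophage list rose by 0.65 ± 0.17 (adjusted p = 0.0229) and the granulocyte gene S100a8 by 1.02 ± 0.31 (adjusted p = 0.0395). The part of these cells in the values of the 42 genes was not tested.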

How the data were processed

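RNA of untreated mouse peritoneal macrophages was purified with an RNeasy kit, per the labels' protocols. Tools of the authors, per the submitters' processing notes, include DESeq2, Salmon, STAR and R 4.1.2, on mm10 or GRCm38. A second set stands in the labels' protocols (Ensembl Gene 61, bedtools 2.16.2, pBWA 0.5.9-r32-MPI-patch2). Their roles, and any use of strand in counting, are not stated there. The authors deposited variance-stabilized log2 values with a floor of 5.81, log2 fold changes and p-values, and, as a signal per genotype, mean normalized counts. The log2 values were turned back into normalized counts, which matched the deposited means to 4.62e-14, and into whole reads (100% within 0.01 of a whole number). Columns name genotypes but not single samples. limma 3.58.1 (trend, robust) was fitted in R 4.3.3 to log2(normalized count + 1) of the 13252 genes with at least 10 in at least 4 libraries, 14 being left out, with genotype as the only term and Benjamini-Hochberg adjustment over all of them. The score was computed on the deposited log2 values. Pairs of libraries of a genotype differed by a chi-square of 12.9 to 209.6 per degree of freedom, so none was counted as a copy. The fit was tested on simulated counts. The genes and lists were chosen with earlier results of these data known. Values in every library are given for 11 genes chosen by name, those of highest and lowest mean in each role, those called and those of smallest p in a comparison; of other lists, called genes are named. Gene positions and exon lengths came from GENCODE M21 and promoters from RefSeq. Alternatives covered the pseudocount, the filter, the scaling, voom, the libraries fitted and each library left out.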

Additional observations from a re-analysis of the deposited data

Results flagged for a closer look

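Of 138 groups of 4 or 5 libraries examined (the scores and the 20 genes given library by library), 22 had a highest or lowest library far from the others by Dixon's ratio at the 95% level, where chance gives about 1 in 20. The groups are not independent, since the genes move together. SAMHD1 KO 4 accounted for 9 of them, RIG-I KO 1 for 6, MDA5 KO 4 for 3, SAMHD1 RIG-I DKO 4 for 2, and WT 2 and SAMHD1 MDA5 DKO 4 for 1 each.

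SAMHD1 KO 4 stood high in the score of all genes (9.33 against 7.56 to 7.78), of the replication genes (10.26 against 9.15 to 9.24) and of the mitosis genes (9.0 against 7.0 to 7.28). It also stood high for Cdk1 (345 against 29.0 to 38.7), Mcm5 (1532 against 333 to 409), E2f1 (688 against 407 to 442), Stmn1 (1810 against 138 to 173), Aurkb (528 against 67.0 to 87.5) and Spc25 (140 against 29.0 to 32.3). RIG-I KO 1 stood high in the score of all genes (8.67 against 7.92 to 7.97) and of the mitosis genes (8.18 against 7.36 to 7.43), and for Mki67 (973 against 347 to 362), Top2a (1046 against 354 to 408), Aurkb (264 against 86.1 to 102) and Cdca8 (167 against 85.5 to 95.1). MDA5 KO 4 stood high in the score of the replication genes (10.19 against 9.34 to 9.40), for Mcm2 (1095 against 428 to 474) and for Ccna2 (292 against 91.8 to 110). SAMHD1 RIG-I DKO 4 stood high for Mki67 (970 against 524 to 561) and Top2a (956 against 613 to 653). The low ones were SAMHD1 MDA5 DKO 4 for Cdk1 (56.9 against 100 to 111) and WT 2 for Kif2c (1 against 51.9 to 183).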

How the results depend on the processing

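The count of members called stayed the same in 253 of 266 values under alternatives. The medians in 232 of 232 moved by less than 1 within-genotype SD of the mean log2(normalized count + 1) over members, although 7 changed sign. That limit is wide beside the medians themselves. Within it, the median of SAMHD1 KO against WT ran from -1.2 to -0.183. That of SAMHD1 RIG-I DKO against WT ran from -0.491 to 0.426. In SAMHD1 RIG-I DKO against WT the count was 1 (Pcna) in place of 0 with a filter at a normalized count of 50 and with upper-quartile scaling. In SAMHD1 RIG-I DKO against SAMHD1 KO it was 0 in place of 1 in a fit of those 2 genotypes alone and without the libraries of intermediate Samhd1, where Pcna had an adjusted p of 0.0637 and 0.0983; both fits hold fewer samples. Leaving out 1 library at a time gave 0 to 2 members in SAMHD1 RIG-I DKO against SAMHD1 KO, 0 to 1 in SAMHD1 RIG-I DKO against WT, 0 to 1 in the F test (1, Pcna, without WT 1 or without SAMHD1 KO 4), and 0 in the other comparisons. Over all its alternatives the adjusted p of Pcna in SAMHD1 RIG-I DKO against SAMHD1 KO was 0.0231 to 0.0983. No paired analysis was possible because the columns carry no replicate number of the labels. Depth limits the mitosis genes most, since 14 of the 42 had a mean under 100.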
